A study of Mus musculus with 14 samples.

Results

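Unsorted neural progenitors grown from mouse embryonic stem (mES) cells were compared with spinal neurons of the mouse embryo across all genes measured by RNA sequencing. The comparison used 10 of the 13 libraries analysed: the single library of neural progenitors and the 9 wild-type neuron libraries. The study, whose subject is the motoneuron microRNA miR-218, labels 14 samples, and its floor plate sample was not analysed here. The neural progenitors were wild-type mES cells on day 4 of differentiation in retinoic acid and an agonist of Sonic hedgehog signalling. They carried no reporter and were collected without sorting. The neurons came from spinal cords of wild-type embryos at E12.5 (the embryonic day), which were dissociated with papain and sorted by fluorescence. Motoneurons carried the Hb9::gfp transgene, in which the promoter of the motoneuron factor Hb9 drives GFP, and were sorted for GFP (6 libraries). V1 interneurons (En1:cre), V2a interneurons (Chx10:cre) and V3 interneurons (Sim1:cre) were sorted for tdTomato made from Rosa26:LSL:tdTomato after Cre recombination (1 library each). Cre labelling follows lineage, so a sorted cell had the driver active at some time and need not have it active at collection. A further mES library of day 4, labelled as motoneuron progenitors and sorted for tdTomato from Olig2:cre;Rosa26:LSL:tdTomato, entered no count, and its values stand beside some results. The labels do not say how many cultures, mES lines or embryos each library holds. Stem cell culture against embryo, unsorted against sorted cells and progenitor against neuron all differ between the same libraries and cannot be told apart. In bulk RNA, fewer cells of a type and less RNA per cell cannot be told apart either.

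Expression was given as a signal per gene, a length-scaled abundance that the authors had also scaled between libraries. A gene entry was called higher when its progenitor signal lay above all 9 neuron signals and lower when it lay below all 9, provided that the higher value was at least 10. Of 23523 entries, 15544 reached 10. Of these, 6213 (40.0%) were higher and 5009 (32.2%) lower in the progenitors, so a list of genes has to be read against these shares. A distance of at least 2-fold from the nearest neuron remained for 3229 higher and 2607 lower entries. Because there was 1 progenitor library, an exact permutation test of a single gene could not go below p = 0.1 (one-sided) or 0.2 (two-sided). A limma fit across all genes, which takes the lone progenitor library to vary as the neurons do, called 4795 entries higher (28.0% of 17144 tested) and 3844 lower (22.4%) at an adjusted p of 0.05. Log2 differences below are progenitors minus the mean of the 9 neurons on log2(signal + 1), with limma's standard error (SE) and adjusted p, and their median over entries that reached 10 was 0.12. Estimated depth was 23500000 reads in the progenitors and 11900000 to 28600000 in the neurons, so that 3 reads in a transcript of 2000 bases gave a signal of 1.21 in the progenitors and of 0.99 to 2.69 in the neurons. Values near or below these carry little information.

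Retinoic acid is the signal that turns pluripotent cells towards spinal fates in culture. It binds nuclear receptors, the RARs, that sit on paired half-sites in DNA, and it induces genes for its own transport and breakdown as well as the anterior Hox genes. Sonic hedgehog acts through the receptor Patched, the transducer Smoothened and the Gli transcription factors to give ventral spinal cells their identity. Neural progenitors divide under E2F factors, which act on replication genes, and under the complexes that bind the cell cycle homology region (CHR) and the CCAAT box of mitotic genes. Neurons leave the cell cycle, lose the repressor REST, which occupies the RE1 element of neuronal genes, and exchange subunits of the BAF chromatin remodelling complex as well as their splicing factors.

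Promoters of 6 genes are shown because they carry the letters of these pathways and because the genes stand for the groups described below. Stra8 and Cyp26a1 were the retinoic acid genes with the largest distance from the neurons, Rarb is a receptor gene that lay within the neuron range, Mcm3 and Cdk1 stand for replication and mitosis, and Gria2 stands for neuronal genes. Each runs from 250 bases before to 50 bases after the RefSeq start, 5′ to 3′ on the gene's strand, on build GRCm38.p6, and capitals mark the motif.
Stra8 promoter, chr6:34920698-34920997, plus strand: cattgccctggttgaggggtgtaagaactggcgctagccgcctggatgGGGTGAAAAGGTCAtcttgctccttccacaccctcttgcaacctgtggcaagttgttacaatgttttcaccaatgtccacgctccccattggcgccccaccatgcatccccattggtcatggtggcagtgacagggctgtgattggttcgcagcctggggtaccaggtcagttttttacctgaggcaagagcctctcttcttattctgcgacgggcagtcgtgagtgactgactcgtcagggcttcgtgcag
Cyp26a1 promoter, chr19:37697558-37697857, plus strand: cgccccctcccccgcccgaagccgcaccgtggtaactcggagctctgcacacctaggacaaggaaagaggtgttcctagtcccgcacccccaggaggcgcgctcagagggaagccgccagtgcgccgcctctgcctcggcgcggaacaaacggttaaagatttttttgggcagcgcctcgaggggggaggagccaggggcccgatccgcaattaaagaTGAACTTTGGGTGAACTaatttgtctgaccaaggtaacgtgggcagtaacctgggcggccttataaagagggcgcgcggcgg
Rarb promoter, chr14:16575427-16575726, minus strand: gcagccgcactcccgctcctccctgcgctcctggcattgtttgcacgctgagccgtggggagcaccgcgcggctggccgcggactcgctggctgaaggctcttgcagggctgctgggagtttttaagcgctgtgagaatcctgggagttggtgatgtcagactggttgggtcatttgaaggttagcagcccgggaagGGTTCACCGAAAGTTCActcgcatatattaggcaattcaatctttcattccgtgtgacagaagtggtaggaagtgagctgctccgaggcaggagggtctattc
Mcm3 promoter, chr1:20820263-20820562, minus strand: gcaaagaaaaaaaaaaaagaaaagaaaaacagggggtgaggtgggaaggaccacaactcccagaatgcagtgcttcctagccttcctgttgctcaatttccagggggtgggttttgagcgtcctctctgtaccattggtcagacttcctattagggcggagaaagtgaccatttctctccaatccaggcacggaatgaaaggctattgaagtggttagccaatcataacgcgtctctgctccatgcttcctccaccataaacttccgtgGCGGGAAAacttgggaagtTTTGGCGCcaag
Cdk1 promoter, chr10:69352863-69353162, minus strand: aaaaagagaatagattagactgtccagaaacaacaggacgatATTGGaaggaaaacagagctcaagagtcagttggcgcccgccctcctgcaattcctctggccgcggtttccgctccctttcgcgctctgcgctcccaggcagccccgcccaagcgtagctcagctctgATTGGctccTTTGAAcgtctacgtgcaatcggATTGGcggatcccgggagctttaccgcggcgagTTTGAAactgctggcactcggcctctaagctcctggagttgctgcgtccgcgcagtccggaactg
Gria2 promoter, chr3:80802786-80803085, minus strand: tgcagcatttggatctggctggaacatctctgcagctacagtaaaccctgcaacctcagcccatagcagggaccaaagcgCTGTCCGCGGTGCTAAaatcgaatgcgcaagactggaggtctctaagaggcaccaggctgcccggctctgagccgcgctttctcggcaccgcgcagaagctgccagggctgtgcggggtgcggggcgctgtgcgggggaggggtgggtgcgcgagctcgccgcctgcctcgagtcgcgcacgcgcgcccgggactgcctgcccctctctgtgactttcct

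The capitals in Stra8 are a direct repeat of receptor half-sites spaced by 2 bases (DR2), which starts 202 bases before the gene. Those in Cyp26a1 and Rarb are direct repeats spaced by 5 bases (DR5), which start 32 and 53 bases before their genes. Among 27025 genes with a promoter in the RefSeq table, 0.377% held a DR5 match and 0.548% a DR2 match on either strand. Of the 12 retinoic acid genes with a promoter, Cyp26a1 and Rarb held a DR5 match and Stra8 a DR2 match. Mcm3 carries the E2F letters (TTTCCCGC, TTTCGCGC, TTTGCCGC or TTTGGCGC, or their complements) 19 and 38 bases after its start. They occurred in 11 of 23 replication genes (47.8%) and in 2.6% of all genes. Cdk1 holds the CHR letters TTTGAA 71 and 15 bases before its start and CCAAT boxes, read here as ATTGG, 208, 80 and 48 bases before it. A CHR match and a CCAAT match stood together in 16 of 23 mitosis genes (69.6%), against 7.97% of all genes. Gria2 holds an RE1 match 170 bases before its start. Such matches were found in 0.0777% of all promoters, and Gria2 was the one gene with a match among the pan-neuronal, synaptic, ion channel and neuronal RNA regulator lists. A match of letters is a description of the window and not evidence of binding.

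The response to retinoic acid held the single entry furthest above the neurons. Stra8, a meiosis regulator named for its induction by retinoic acid, had a signal of 9926 in the progenitors, against 0 to 0.791 (median 0) in the neurons. Cyp26a1, the enzyme that breaks retinoic acid down, had 2765 in the progenitors and 0 to 3.88 (median 0.459) in the neurons. Stra8 had the largest distance from the nearest neuron of all entries, both genes were close to absent from every neuron library, and no neuron group stood apart. Stra8 had a log2 difference of 13.12 ± 0.34 SE, adjusted p = 9.77e-10, and Cyp26a1 a log2 difference of 10.73 ± 0.81 SE, adjusted p = 3.67e-06. The Olig2-sorted progenitors, which had seen the same ligand, held 2145 of Stra8 and 1277 of Cyp26a1.

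Of the 19 genes of the retinoic acid list, 13 were higher than all neurons, 1 was lower and 5 lay within the neuron range, with a median log2 difference of 2.14 (limma called 10 higher and none lower). In this list 68.4% were higher and 5.26% lower, beside 40.0% and 32.2% of all entries. Among these 13, 4 reached a signal of 10 only in the progenitors and so could not have been called otherwise. Members that break down or reduce retinoids lay high. Dhrs3, a retinaldehyde reductase, had 934 in the progenitors and 17.4 to 50.8 (median 36.3) in the neurons (log2 difference 4.73 ± 0.50 SE, adjusted p = 3.81e-05). Cyp26b1, a second degrading enzyme, had 513 in the progenitors and 17.9 to 254 (median 156) in the neurons, but it did not pass limma's threshold (log2 difference 2.14 ± 1.26 SE, adjusted p = 0.188). Cyp26c1, the third, had 53.2 in the progenitors and 0 to 1.79 in the neurons. Among transcription factors, Cdx1, which relays retinoic acid to Hox genes, had 217 in the progenitors and at most 0.467 in the neurons, where 8 of 9 libraries listed it at 0. Tgm2, a transglutaminase, had 458 in the progenitors and 0 to 11.7 (median 1.18) in the neurons, the V3 library holding the highest of these.

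The receptors and binding proteins did not follow one pattern. Rarg, the receptor of early embryonic cells, had 439 in the progenitors and 11.8 to 60.5 (median 48.2) in the neurons (log2 difference 3.46 ± 0.77 SE, adjusted p = 0.00392). Rarb, whose promoter holds the DR5 printed above, had 306 in the progenitors, against 326 to 492 in the motoneurons and 192, 315 and 169.9 in the V1, V2a and V3 interneurons. The progenitor value of Rarb thus lay below all motoneurons and between the interneurons, and the difference did not pass limma's threshold (log2 difference -0.11 ± 0.53 SE, adjusted p = 0.874). Rara had 319.9 in the progenitors and 191 to 713 in the neurons. Crabp1, a retinoic acid binding protein, lay within the neuron range, with 1646 in the progenitors and 294 to 3559 in the neurons. So did Stra6, a retinol transporter, with 286 in the progenitors and 6.93 to 438 in the neurons. Crabp2 was higher by the range rule with 5291 in the progenitors and 800.1 to 4753 in the neurons, a ratio of 1.11 to the highest neuron, and did not pass limma (log2 difference 0.88 ± 0.77 SE, adjusted p = 0.373). With the 4 neuron types as separate groups of equal weight, the log2 differences of Cyp26b1 and Crabp2 were 3.09 and 1.38. Each interneuron type has 1 library in that fit, so its error came from the motoneuron libraries alone and its calls are not given. Tshz1 was the one lower member, with 456 in the progenitors and 561 to 1042 in the neurons. Without the V1 library, the count of lower members was 2.

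**Figure D1:**
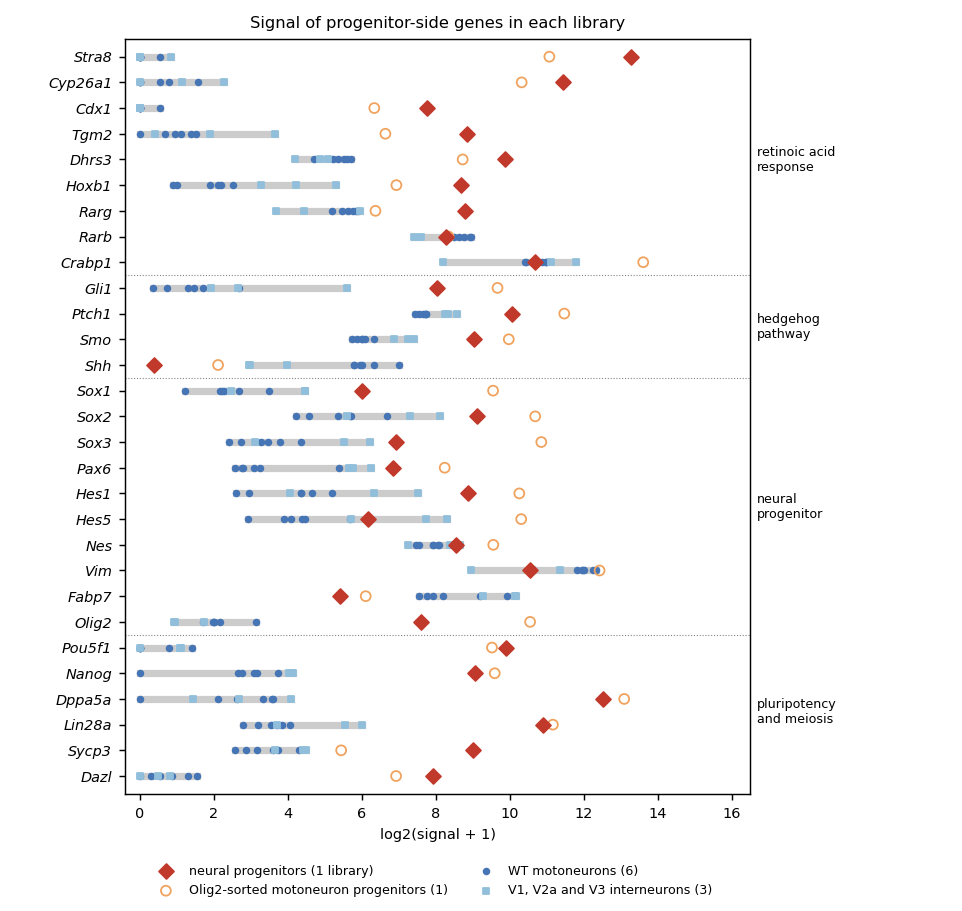
Signal of 29 genes of the retinoic acid, hedgehog, neural progenitor and pluripotency groups in each library, on a log2(signal + 1) axis, with the neuron range as a grey bar. Stra8 at 9926 and Cyp26a1 at 2765 in the neural progenitors stand far to the right of all neurons, while Rarb, Crabp1, Hes5, Nes and Vim lie inside the grey bars.

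Targets and transducers of Sonic hedgehog were higher in the progenitors, and the ligand was lower. Of 13 genes, 9 were higher, 1 was lower and 3 lay within the range, with a median log2 difference of 2.16, and limma called 8 higher and 1 lower. Gli1, a transcription factor that is itself a hedgehog target, had 258 in the progenitors and 0.288 to 47.4 (median 2.28) in the neurons. The V3 library held 47.4 and every other neuron library at most 5.41. Ptch1, the receptor and a target, had 1055 in the progenitors and 174 to 381 (median 213) in the neurons (log2 difference 2.16 ± 0.39 SE, adjusted p = 0.00124). Smo, the transducer, had 517 in the progenitors and 52.7 to 168 (median 67.4) in the neurons. The co-receptor gene Gas1 had 485 in the progenitors and 43.9 to 134 in the neurons. These 4 genes were named from the called members, so that their groups do not overlap is the call itself. The share of higher members, 69.2% of the 13, stood beside 40.0% of all entries.

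Shh itself ran the other way. It had 0.302 in the progenitors, which is below the signal of 3 reads, against 54.3 to 128 in the motoneurons and 6.77, 6.92 and 14.7 in the V1, V2a and V3 interneurons (log2 difference -4.82 ± 1.46 SE, adjusted p = 0.0198). With a pseudocount of 5, limma did not call Shh (adjusted p = 0.0667). The motoneurons were the high group. Foxa2, a floor plate factor, had 93.8 in the progenitors and 0 to 27.3 (median 2.55) in the neurons. Sufu and Boc, an inhibitor and a co-receptor of the pathway, lay within the neuron range, at 165 and 47.1 in the progenitors and 114 to 220.5 and 5.49 to 149.9 in the neurons. Without motoneuron replicate 2, the count of lower members was 2.

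The label of neural progenitors was checked against 26 genes of that cell state. By the range rule 14 were higher, 2 were lower, 9 lay within the range and 1 did not reach 10, with a median log2 difference of 1.68. Of the 14, 5 were at least 2-fold above the nearest neuron, and limma called 8 higher and 1 lower. The share of higher members, 56.0% of the 25 that reached 10, stood beside 40.0% of all entries. Sox2, which keeps neural and pluripotent cells undifferentiated, had 553 in the progenitors and 17.6 to 277 (median 49.9) in the neurons. Sox1, a marker of early neural cells, had 62.6 in the progenitors and 1.31 to 21.1 (median 4.47) in the neurons (log2 difference 3.17 ± 1.08 SE, adjusted p = 0.0335). Its adjusted p was 0.0505 without motoneuron replicate 5 and 0.0501 without motoneuron replicate 6. The Olig2-sorted progenitors held 747 of Sox1 and 1645 of Sox2, above the unsorted progenitors for both.

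Pax6, a factor of ventricular zone progenitors, had 114 in the progenitors and 4.99 to 74.97 (median 8.503) in the neurons, and its difference did not pass limma (log2 difference 2.68 ± 1.497 SE, adjusted p = 0.167). Hes1, an effector of Notch, had 463 in the progenitors and 5.10 to 181 (median 19.6) in the neurons. Hes5, the other Notch effector, lay within the range with 71.4 in the progenitors, against 6.64 to 50.3 in the motoneurons and 51.4, 213 and 317 in the V1, V2a and V3 interneurons. Hes5 was thus higher than in the motoneurons and V1 neurons and lower than in the V2a and V3 libraries. The intermediate filament genes Nes (372 in the progenitors, 152 to 399 in the neurons) and Vim (1501 and 495 to 5184) also lay within the range. Fabp7, a fatty acid binding protein of radial glia, was lower, with 41.2 in the progenitors and 187 to 1152 (median 581) in the neurons (log2 difference -3.50 ± 1.02 SE, adjusted p = 0.0164). Zic1, a dorsal neural factor, had 13.5 in the progenitors and 17.97 to 325 in the neurons. The V3 library held the highest neuron value for 19 of the 26 genes, and their summed signal was 7842 in the progenitors and 3832 to 9535 in the neurons.

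Among 20 genes that mark dorsal and ventral progenitor domains, 5 were higher, 3 lower and 11 within the range, with 3 that reached 10 only in the progenitors and 7 only in neurons. The share of higher members, 26.3% of the 19 that reached 10, was below the 40.0% of all entries. Olig2, the factor of the motoneuron progenitor domain, had 191 in the progenitors and 0.891 to 7.86 (median 2.91) in the neurons (log2 difference 5.74 ± 0.67 SE, adjusted p = 7.61e-05), and 1495 in the Olig2-sorted progenitors. Nkx2-9, a hedgehog-dependent factor, had 208 in the progenitors and 0 to 4.49 (median 0.865) in the neurons. Olig1 had 46.3 in the progenitors and 0.753 to 10.4 in the neurons. Nkx6-1 (168 in the progenitors, 8.80 to 549.9 in the neurons) and Nkx2-2 (20.4 and 0.680 to 2858) lay within the range, with the highest neuron value of both in V3. Genes of more dorsal domains, Gsx1, Gsx2, Pax7 and Dbx1, were at 0, 2.42, 1.69 and 1.16 in the progenitors, all near the signal of a few reads.

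Genes of cells about to become neurons had calls in both directions. Of 18 proneural and nascent neuron genes, 17 reached 10, of which 7 were lower and 4 higher. The shares, 41.2% lower and 23.5% higher, stood beside 32.2% and 40.0% of all entries. Sox11 and Sox4, factors that switch on neuronal genes, had 204 and 671 in the progenitors, against 1589.9 to 4506 (median 2379) and 1833 to 3567 (median 2892) in the neurons. Both were lower than every neuron (Sox11 log2 difference -3.67 ± 0.54 SE, adjusted p = 0.000334, and Sox4 log2 difference -2.03 ± 0.32 SE, adjusted p = 0.000520). Neurod1, a factor of young neurons, had 31.0 in the progenitors and 122 to 1140.0 in the neurons. Neurog1, a proneural factor, was higher with 47.3 in the progenitors and 0.851 to 16.6 in the neurons, while Neurog2 lay within the range, with 55.5 in the progenitors and 26.2 to 298 in the neurons.

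Genes of the pluripotent state were high in the progenitors of day 4. Of 29 pluripotency genes, 26 were higher, 1 was lower and 2 lay within the range, with a median log2 difference of 5.99 (limma called 23 higher). In this list 89.7% were higher and 3.45% lower, beside 40.0% and 32.2% of all entries. Among these 26, 15 reached 10 only in the progenitors. Pou5f1, the core pluripotency factor Oct4, had 956 in the progenitors and 0 to 1.65 (median 0) in the neurons (log2 difference 9.41 ± 0.60 SE, adjusted p = 1.01e-06). Nanog had 533 in the progenitors and 0 to 16.7 (median 8.01) in the neurons. Dppa5a, an RNA-binding protein of pluripotent cells, had 5817 in the progenitors and 0 to 15.9 (median 5.40) in the neurons. Near-identical copies of Dppa5a and Nanog exist in the genome, so reads of these may be shared between copies. Dnmt3l, Dppa4 and Utf1 were listed at 0 in all 9 neurons and had 624, 519 and 457 in the progenitors. The Olig2-sorted library held 731 of Pou5f1 and 770.2 of Nanog. The exceptions were Esrrb (226 in the progenitors, 1.37 to 407 in the neurons), Klf4 (67.9 and 8.68 to 199) and Fgf5, a gene of primed epiblast, which was lower (1.93 and 3.03 to 22.5).

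Stra8 was accompanied by other genes of germ cells and meiosis. Of 18 such genes, 16 were higher, none was lower, Nanos3 lay within the range and Spo11 was listed at 0 throughout, and limma called 14 higher. Among them 12 reached 10 only in the progenitors. Rec8, the meiotic cohesin subunit, had 1321 in the progenitors, against 3.45 to 296 (median 33.1) in the neurons. The neurons were split for Rec8, with 247 in motoneuron replicate 6 and 187 to 296 in the interneurons but at most 33.1 in the other motoneurons, and it did not pass limma (log2 difference 4.92 ± 2.39 SE, adjusted p = 0.115). Sycp3, of the synaptonemal complex, had 511 in the progenitors and 4.97 to 21.5 (median 11.6) in the neurons. Dazl, a germ cell RNA-binding protein, had 241 in the progenitors and 0 to 1.91 (median 0.453) in the neurons. Ddx4, the germ cell helicase Vasa, had 199 in the progenitors and 1.91 to 8.81 in the neurons. The share of higher members, 94.1% of the 17 that reached 10, stood beside 40.0% of all entries. Sycp3, Dazl and Ddx4, all among the higher members, had log2 differences of 5.35, 7.27 and 4.86. The Olig2-sorted library held 42.4, 121 and 80.2 of these 3 genes. Without motoneuron replicate 6, Nanos3 was lower, and the count of lower members was then 1.

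Markers of other lineages were also measured, since the cells were not sorted. Of 19 genes of neural crest, placode and surface ectoderm, 15 reached 10, of which 9 were higher and 4 lower. That made 60.0% higher and 26.7% lower, beside 40.0% and 32.2% of all entries. Of the entries that reached 10, 7 did so only in the progenitors and 4 only in neurons. The higher ones were led by the epithelial genes Cdh1, Krt8 and Krt18. Cdh1, E-cadherin, had 2373 in the progenitors and 0 to 1.30 (median 0.738) in the neurons (log2 difference 10.61 ± 0.44 SE, adjusted p = 3.87e-08). Krt8 and Krt18, simple epithelial keratins, had 3228 and 4772 in the progenitors, against 0 to 3.93 and 0 to 6.79 in the neurons. The crest markers Sox10 (4.75 in the progenitors, 0 to 4.87 in the neurons), Tfap2a (11.8 and 13.8 to 116) and Tfap2b (2.94 and 23.4 to 289.9) were not higher.

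Of 16 endoderm genes, 9 were higher and 1 was lower, and 6 reached 10 only in the progenitors. Gata4 and Gata6 had 69.0 and 63.0 in the progenitors and at most 0.964 and 0.720 in the neurons. Lamb1, a laminin chain, had 1117 in the progenitors and 6.75 to 44.4 in the neurons. The later endoderm genes Afp, Ttr and Hnf4a were at 0.772, 1.98 and 0.923 in the progenitors. Of 19 mesoderm genes, 6 did not reach 10, and of the other 13, 8 (61.5%) were higher and none was lower. A signal of 10 was reached only in the progenitors by 3. The early mesoderm gene T had 1.18 in the progenitors and 0 to 0.645 in the neurons. The part of cells of other lineages in the differences above was not tested.

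Genes of dividing cells separated the groups without exception, while 40.0% of all entries were higher in the progenitors. All 30 DNA replication genes and all 26 mitosis genes were higher than in all 9 neurons, and limma called each of them, with median log2 differences of 3.53 and 5.44. Mcm3, a subunit of the replicative helicase, had 2012 in the progenitors and 5.08 to 174 (median 12.52) in the neurons (log2 difference 6.71 ± 1.49 SE, adjusted p = 0.00403). Pcna, the polymerase clamp, had 4247 in the progenitors and 443 to 880.1 (median 569) in the neurons (log2 difference 2.86 ± 0.26 SE, adjusted p = 1.48e-05). Mki67, the proliferation antigen Ki-67, had 979 in the progenitors, against 2.63 to 17.2 in the motoneurons and 5.15, 63.0 and 193 in the V1, V2a and V3 interneurons. The V3 library was the nearest to the progenitors here, and the V1 library lay among the motoneurons. Cdk1, the mitotic kinase, had 1020.0 in the progenitors and 1.95 to 68.0 (median 7.43) in the neurons (log2 difference 6.68 ± 1.45 SE, adjusted p = 0.00352).

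The V3 library held the highest neuron value for all 26 mitosis genes and for 28 of the 30 replication genes. The summed signal of the mitosis genes was 29419 in the progenitors, against 355 to 715 in the motoneurons and 394, 1596 and 3682 in the V1, V2a and V3 interneurons. The progenitor sum was thus above every neuron sum, and the spread within the neurons lay mainly in V2a and V3.

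**Figure D2:**
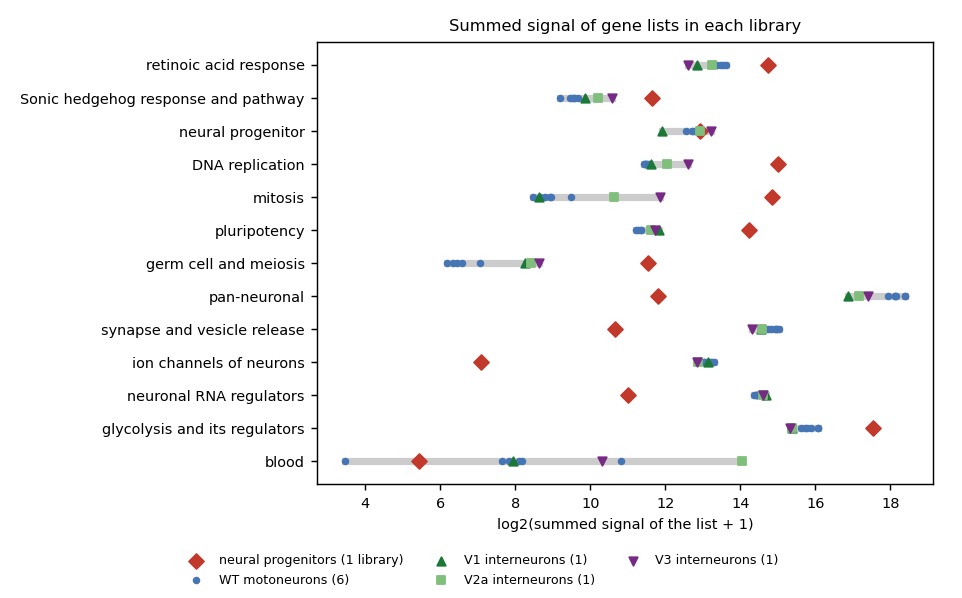
Summed signal of 13 gene lists in each library, on a log2(summed signal + 1) axis, with the neuron range as a grey bar and each interneuron library marked apart. The mitosis sum is 29419 in the neural progenitors and 3682 in the V3 library, the highest neuron, whereas the neural progenitor list overlaps and the blood list is highest in V2a.

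The list of cell cycle exit was not lower as a group: of 13 genes, 8 were higher, 3 were lower and 2 lay within the range. The shares, 61.5% higher and 23.1% lower, stood beside 40.0% and 32.2% of all entries. The higher members include Ccnd2 and Ccnd3, which encode cyclins and not inhibitors of the cycle. Cdkn2a, which encodes the inhibitors p16 and Arf, had 460.4 in the progenitors and was listed at 0 in all 9 neurons. Cdkn1a, the inhibitor p21, had 850.0 in the progenitors and 52.4 to 178 (median 128) in the neurons (log2 difference 2.96 ± 0.53 SE, adjusted p = 0.00115). Ccnd2 and Ccnd3, D-type cyclins, had 717 and 1416 in the progenitors, against 8.41 to 138 and 63.3 to 158 in the neurons. The pocket protein genes Rb1 and Rbl2 were the clearest lower members, with 140.2 and 24.0 in the progenitors and 334 to 559.5 and 98.2 to 124 in the neurons. Cdkn1c, the inhibitor p57, had 1478 in the progenitors and 1283 to 4899 in the neurons.

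Neuronal genes ran the opposite way. Of 32 pan-neuronal genes, 31 were lower than in all 9 neurons and none was higher, with a median log2 difference of -5.99, and limma called the same number lower. Of the 32, 3 reached 10 only in neurons. Lower members made up 96.9% of the list, beside 32.2% of all entries. The count of lower genes stayed at 31 when any 1 neuron library was left out. Tubb3, the neuronal tubulin, had 423 in the progenitors, against 32977 to 48303 in the motoneurons and 14435, 21759 and 29607 in the V1, V2a and V3 interneurons (log2 difference -6.23 ± 0.56 SE, adjusted p = 1.31e-05). Dcx, a microtubule protein of migrating neurons, had 17.5 in the progenitors and 4901 to 9108 (median 6451) in the neurons (log2 difference -8.43 ± 0.26 SE, adjusted p = 2.98e-09). Mapt, the axonal protein tau, had 20.6 in the progenitors and 4533 to 10915 (median 9291) in the neurons, the lowest of them 220.0 times the progenitor value. All 9 neurons were high for these genes, with the motoneurons above the interneurons for Tubb3.

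Neurofilament genes had a wider spread among the neurons. Nefl had 139.6 in the progenitors, against 31957 to 51312 in the motoneurons and 992, 5756 and 12011 in the V1, V2a and V3 interneurons (log2 difference -7.06 ± 1.83 SE, adjusted p = 0.00936). The V1 library lay nearest to the progenitors for Nefl. Myt1l, a repressor of non-neuronal genes, had 1.007 in the progenitors and 269 to 1503 (median 656) in the neurons. Uchl1, a deubiquitinase of neurons chosen after its values were seen, had 942 in the progenitors, the highest of the list there, against 3638 to 17921 in the neurons. Thy1 was the one member within the range, with 6.96 in the progenitors, 8.17 to 22.5 in the motoneurons and 7.16, 2.50 and 1.33 in the V1, V2a and V3 interneurons.

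**Figure D3:**
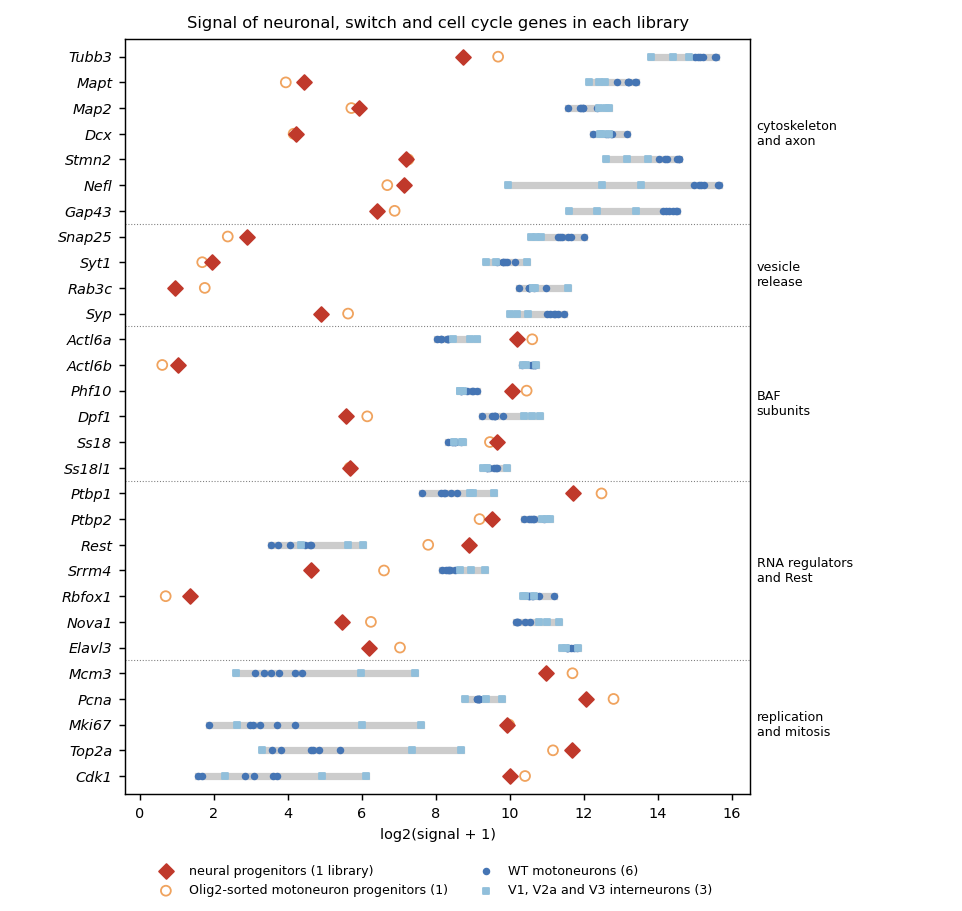
Signal of 29 neuronal, chromatin, RNA regulator and cell cycle genes in each library, on a log2(signal + 1) axis, with the neuron range as a grey bar. Neural progenitors lie left of all neurons for neuronal genes, at 423 for Tubb3 and 1.04 for Actl6b, and right of them for Actl6a, Phf10, Ss18, Ptbp1, Rest and the replication and mitosis genes.

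The machinery of transmitter release and excitability was lower too. Of 26 entries for 25 synaptic genes, 25 (96.2%) were lower and none higher, beside 32.2% and 40.0% of all entries. Their median log2 difference was -5.17, and 12 reached 10 only in neurons. Rab3c, a vesicle GTPase, had 0.947 in the progenitors and 1204 to 3057 (median 1574) in the neurons, and Snap25, a SNARE protein, had 6.46 and 1535 to 4115 (median 2597). Syt1, the calcium sensor of vesicles, had 2.89 in the progenitors and 658 to 1401 (median 894) in the neurons. Homer1, a postsynaptic scaffold, lay within the range with 225 in the progenitors and 203 to 294 in the neurons, and Vamp2, a vesicle SNARE protein, had a signal of 399 in the progenitors, against 1922 to 3745 in the neurons. Of 26 ion channel and receptor genes, 24 (92.3%) were lower and none higher, and 23 reached 10 only in neurons. Gria2, the AMPA receptor subunit whose promoter holds the RE1 letters, had 1.18 in the progenitors, against 363 to 1035 in the motoneurons and 1288, 1157 and 1449 in the V1, V2a and V3 interneurons. Kcna1 (1.17 in the progenitors, 0.769 to 52.8 in the neurons) and Cacna2d1 (47.9 and 10.1 to 818) lay within the range, since the V3 library held 0.769 of Kcna1 and the V1 library 10.1 of Cacna2d1.

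**Figure D4:**
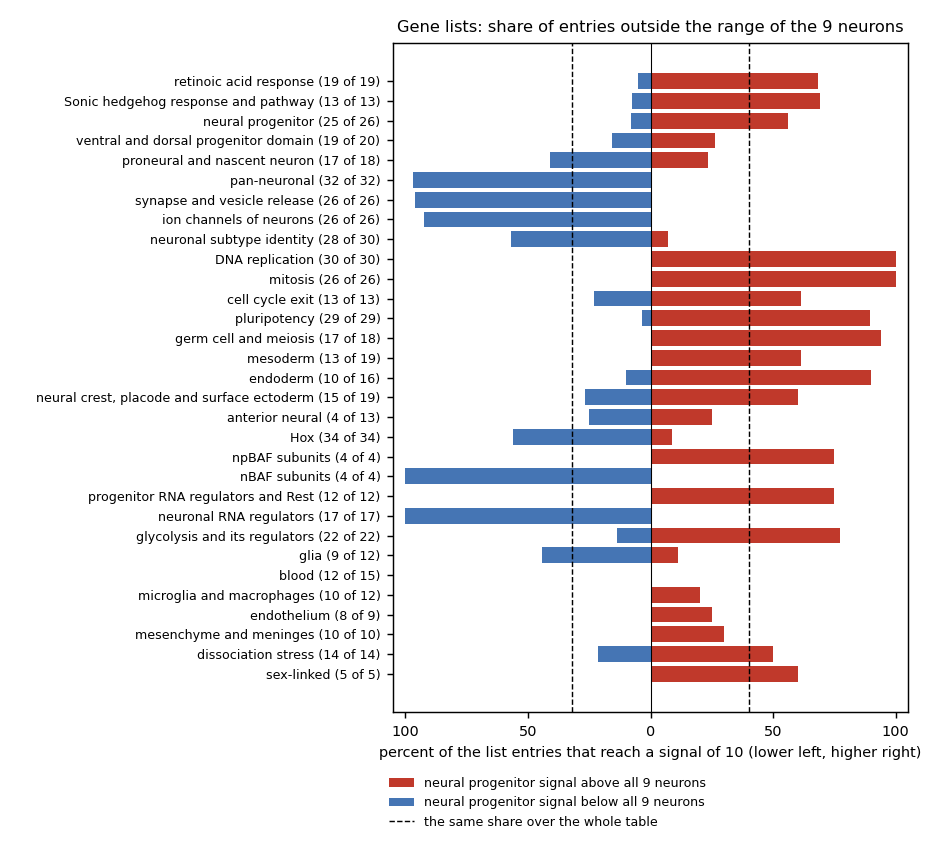
Share of each gene list that was higher (right) or lower (left) than all 9 neurons, in percent of the entries that reached a signal of 10, with that number and the number of all entries in brackets. Dashed lines mark the same shares over the whole table, 40.0% higher and 32.2% lower, and the bars of DNA replication and mitosis reach the right end of the axis.

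Genes that tell neuron types apart are high in single neuron types by their nature. Of 30 such genes, 16 were lower, 2 were higher, 10 lay within the range and 2 did not reach 10, while 18 reached 10 only in neurons, and limma called 3 lower and 1 higher. Of the 28 that reached 10, 57.1% were lower and 7.14% higher, beside 32.2% and 40.0% of all entries. Mnx1, the gene of Hb9, had 165 in the progenitors, against 2194 to 3995 in the motoneurons and 0.775, 7.46 and 3.16 in the V1, V2a and V3 interneurons. Isl1, a motoneuron factor, had 45.2 in the progenitors, 1593 to 2323 in the motoneurons and 9.83, 34.4 and 9.11 in the interneurons in the same order. Both genes thus lay between motoneurons and interneurons in the progenitors. Slc17a6, the vesicular glutamate transporter, had 0.186 in the progenitors and 13.6 to 1581 (median 112) in the neurons. Gata2, a factor of V2b neurons and of blood and trophoblast, was higher with 151 in the progenitors and 0.430 to 29.5 (median 3.48) in the neurons.

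BAF complexes exchange subunits when progenitors become neurons, and all 8 genes of this exchange were measured. The progenitor subunits Actl6a, Phf10 and Ss18 were higher, and the neuronal subunits Actl6b, Dpf1, Dpf3 and Ss18l1 were lower. Actl6b (BAF53B) had 1.04 in the progenitors and 1282 to 1683 (median 1570.4) in the neurons (log2 difference -9.53 ± 0.16 SE, adjusted p = 7.57e-11). Its partner in the exchange, Actl6a (BAF53A), had 1160.3 in the progenitors and 263 to 551 (median 321) in the neurons (log2 difference 1.76 ± 0.36 SE, adjusted p = 0.00257). Actl6b was close to absent from the progenitors, whereas Actl6a stayed well above 0 in every neuron. Phf10 (BAF45A) had 1056 in the progenitors and 404 to 554 in the neurons, and its counterparts Dpf1 (BAF45B) and Dpf3 (BAF45C) had 46.6 and 10.6 in the progenitors and 605 to 1801 and 157 to 489.9 in the neurons. Ss18 had 811 in the progenitors and 319.7 to 427 in the neurons, and its counterpart Ss18l1 (CREST) had 50.7 and 614 to 963. Dpf2 (BAF45D) was the one that lay within the range, with 934 in the progenitors and 723 to 941 (median 801) in the neurons (log2 difference 0.21 ± 0.12 SE, adjusted p = 0.170).

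The regulators of neuronal RNA were split in both directions. Of 12 progenitor RNA regulators and Rest, 9 were higher and none lower, and all 17 neuronal RNA regulators were lower, with a median log2 difference of -5.31 (5 reached 10 only in neurons). Rest, the repressor of neuronal genes, had 477 in the progenitors and 10.6 to 64.7 (median 21.2) in the neurons (log2 difference 4.34 ± 0.81 SE, adjusted p = 0.00154). Ptbp1, a splicing repressor of dividing cells, had 3366 in the progenitors and 198 to 758 (median 336) in the neurons, and its neuronal counterpart Ptbp2 had 731 and 1345 to 2190.3 (median 1610.2). Ptbp1 had a log2 difference of 3.20 ± 0.55 SE, adjusted p = 0.000946, and Ptbp2 a log2 difference of -1.22 ± 0.25 SE, adjusted p = 0.00228. Srrm4, which activates neuronal microexons, had 23.9 in the progenitors and 284 to 645 (median 335) in the neurons. Rbfox1, a neuronal splicing factor, had 1.58 in the progenitors and 1299 to 2319.6 (median 1558) in the neurons (log2 difference -9.26 ± 0.25 SE, adjusted p = 1.24e-09). Lin28a, which blocks the microRNA let-7, had 1909.9 in the progenitors and 5.87 to 63.1 (median 12) in the neurons, while Msi1, Igf2bp2 and Igf2bp3 lay within the range at 801, 461 and 704 in the progenitors and 689.9 to 1836, 335 to 863 and 181 to 786 in the neurons. Without motoneuron replicate 2, Msi1 was lower and Igf2bp3 higher.

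Hox genes give cells their position along the body axis and open in order from the 3′ end of each cluster, where retinoic acid acts first. Calls of the 34 Hox genes differed along the clusters. Of 5 genes of paralogue groups 1 to 2, 3 were higher and none lower. Of 10 genes of groups 3 to 5, none was higher and 3 were lower, of 8 genes of groups 6 to 8, 6 were lower and Hoxb6 and Hoxb8 lay within the range, at 258 and 252 in the progenitors, and of 11 genes of groups 9 to 13, 10 were lower. The order had exceptions, such as Hoxd1 with 20.7 in the progenitors and Hoxd3 with 98.4. Of the 19 lower Hox genes, 8 reached 10 only in neurons. Lower genes made up 55.9% of the 34 and higher genes 8.82%, beside 32.2% and 40.0% of all entries. Limma called 2 Hox genes higher and 14 lower in all. Without the V1 library, 5 Hox genes were higher by the range rule. The median signal of the progenitors over the genes of groups 9 to 13 was 2.61, against a median of 400.3 for the neuron medians.

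Hoxb1, among the first to respond to retinoic acid, had 412 in the progenitors, against 0.854 to 38.2 (median 3.54) in the neurons (log2 difference 6.09 ± 1.41 SE, adjusted p = 0.00508). Hoxb2 was 1.11 times the highest neuron, with 819.6 in the progenitors and 71.3 to 737 (median 125) in the neurons. At the other end Hoxc10 and Hoxd10, lumbar genes, had 0.841 and 0.435 in the progenitors, against 1105 to 2053 and 632 to 1724 in the neurons. Hoxa6 was listed at 0 in the progenitors and had 314 to 1769 in the neurons. Hoxb4 (283 in the progenitors, 26.6 to 326 in the neurons) and Hoxb5 (407 and 112 to 1658) lay within the range. Hoxb13 was the sole gene of groups 9 to 13 within the range, at 18.4 in the progenitors and 0 to 21.5 in the neurons. Of the 13 genes that mark brain regions in front of the spinal cord, 9 did not reach 10, En2 among them at 7.51 in the progenitors.

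**Figure D5:**
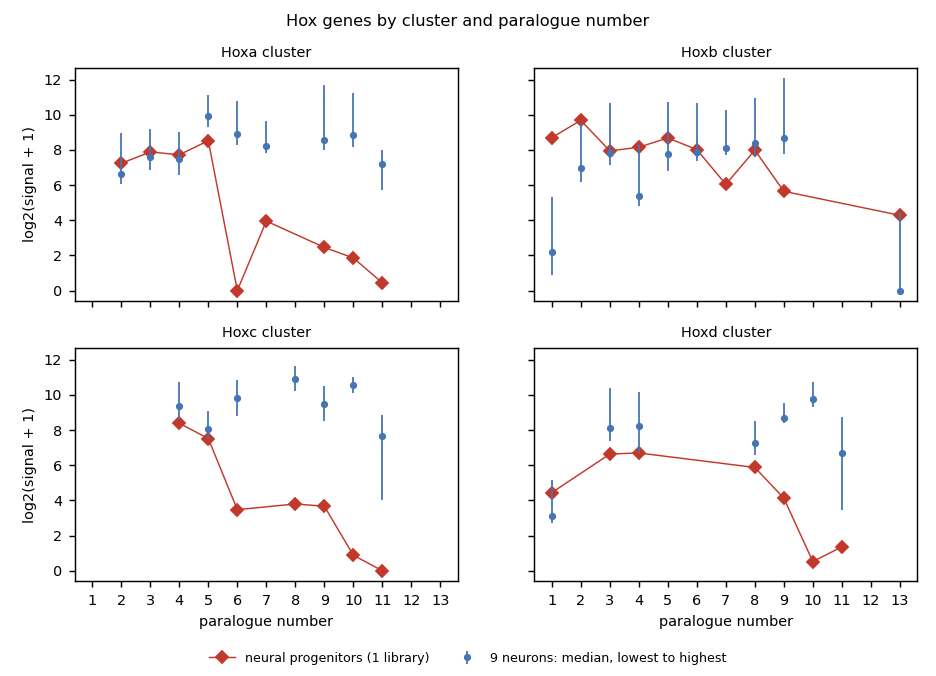
Hox signal by cluster and paralogue number on a log2(signal + 1) axis, with neural progenitors as diamonds and the neurons as the median with a line from the lowest to the highest of the 9 libraries, and not every Hox gene is drawn. Diamonds lie above the neurons for Hoxb1 (412) and far below them for Hoxc10 (0.841) and Hoxd10 (0.435).

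Most glycolytic genes were higher in the progenitors: 77.3% of the list entries were higher and 13.6% lower, beside 40.0% and 32.2% of all entries. Of 22 entries, 17 were higher, 3 lower and 2 within the range, with a median log2 difference of 1.83, and limma called 13 higher and 3 lower. Slc2a1, the glucose transporter GLUT1, had 10399 in the progenitors and 89.9 to 209 (median 111) in the neurons (log2 difference 6.41 ± 0.37 SE, adjusted p = 4.59e-07). Hk2, the inducible hexokinase, had 1118 in the progenitors and 4.71 to 28.6 (median 9.23) in the neurons (log2 difference 6.61 ± 0.69 SE, adjusted p = 3.66e-05), and the hexokinase Hk1 was lower, with 329 and 766 to 1723 (median 1276). Ldha had 11466 in the progenitors, against 2204 to 4130.1 in the motoneurons and 759, 562 and 732 in the V1, V2a and V3 interneurons, and its partner Ldhb was lower with 595 in the progenitors and 2284 to 3517 in the neurons. Ldha did not pass limma (log2 difference 2.60 ± 1.10 SE, adjusted p = 0.0747), while Ldhb did (log2 difference -2.16 ± 0.24 SE, adjusted p = 5.06e-05). With the 4 neuron types weighted equally, the log2 difference of Ldha was 3.525. Gapdh, often used as a reference gene, had 59820.3 in the progenitors and 14747 to 21975 (median 16200.0) in the neurons.

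Markers of other cells that a dissected spinal cord or a mixed culture could hold were measured as well. None of 15 blood entries was outside the range, and their summed signal was 42.1 in the progenitors and 10.1 to 16774 in the neurons, the highest in V2a, with 5 entries at 0 in the progenitors. Of 12 microglia and macrophage genes, 2 were higher and none lower, C1qa, C1qb, C1qc, P2ry12 and Ptprc were at 0 in the progenitors, and the sum was 252 in the progenitors and 22.5 to 293 in the neurons, 8 of them below the progenitors. Of 9 endothelial genes 2 were higher, with a sum of 153 in the progenitors and 8.70 to 211 in the neurons, 8 of them below, and Emcn at 0 in the progenitors. Of 10 mesenchymal genes 3 were higher, with a sum of 642 in the progenitors and 14.9 to 1076 in the neurons, 8 of them below, and no gene at 0. The median log2 difference was 3.52 for the mesenchymal and 1.16 for the endothelial genes. Of 12 glial genes, 1 was higher and 4 were lower, with a sum of 225 in the progenitors and 278 to 385 in the neurons. A signal of 10 was reached by 12 blood, 10 microglia and macrophage, 8 endothelial, 10 mesenchymal and 9 glial entries. Against all 9 neurons, the share of these that were higher lay below the 40.0% of all entries in every list. Their share of lower entries was above 32.2% in the glial list and below it in the others. Single libraries set some of the counts. Without motoneuron replicate 6, 4 blood entries were lower, and without the V3 library 7 mesenchymal and 2 glial genes were higher. Without motoneuron replicate 2, C1qb was lower, and without motoneuron replicate 4, Emcn was lower. The part of such cells in the differences above was not tested.

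Genes of dissociation stress differed in both directions. Of 14 genes, all of which reached 10, 7 were higher and 3 lower. Higher genes thus had a share above the 40.0% of all entries, and lower genes one below 32.2%. Whether the list departs from all entries was not tested. Fos, an immediate early gene, had 324 in the progenitors, against 93.02 to 4656 in the motoneurons and 1206, 469 and 654 in the V1, V2a and V3 interneurons. Fos thus varied widely among the motoneurons and the progenitors lay inside that spread. Jun had 353 in the progenitors and 669 to 2817 (median 2169.6) in the neurons, and Hspb1, a small heat shock protein, had 2388 and 0 to 11.2 (median 5.43). The Y-linked genes Eif2s3y and Ddx3y had 892 and 258 in the progenitors, against 0 to 450.0 and 0 to 165 in the neurons, and Xist had 7.01 in the progenitors and 1.19 to 1197 in the neurons. Both Y-linked genes were listed at 0 in the Olig2-sorted progenitors, so the 2 mES libraries differed in this. The part of stress and sex in the differences above was not tested.

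The 15 entries furthest above the neurons were, in order of distance, Stra8, Cldn4, Rhox6, Mt2, Rhox9, Cdh1, Cldn6, Krt7, Krt8, Dnmt3l, Gbp2, Krt18, Trap1a, Krt19 and Cyp26a1. Of these, 7 encode keratins, claudins or E-cadherin. Mt2, a metallothionein, had 13584 in the progenitors and 0 to 8.28 (median 0) in the neurons. Cldn4 and Cldn6, claudins of tight junctions, had 2809 and 2206 in the progenitors and at most 0.623 and 1.41 in the neurons. The homeobox genes Rhox6 and Rhox9 had 1619 and 1191 in the progenitors and were listed at 0 in all 9 neurons, but the Rhox cluster holds close copies, so reads may be shared. The Olig2-sorted library held 650.2 of Cldn4, 6536 of Mt2 and 129.7 of Rhox6.

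Among the 15 entries furthest below the neurons were Ptpn5, Actl6b, Rab3c, Hoxc10, Rbfox1, Hoxd10, Slitrk1, Darc, Disp2, Hoxa6, Jph4, Dcx and Dner. Ptpn5, a neuronal phosphatase also called STEP, had 0.532 in the progenitors and 1459.9 to 2159 (median 1872) in the neurons (log2 difference -10.21 ± 0.18 SE, adjusted p = 1.13e-10). Slitrk1, a synaptic adhesion protein, was listed at 0 in the progenitors and had 398 to 955 in the neurons. Dner, a ligand of Notch, had 3.10 in the progenitors and 1078 to 3356 in the neurons. These 3 genes were named for their distance from the lowest neuron, so that distance is not a separate result.

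Near the threshold the calls rest on few reads: 156 called entries had a higher value of 10 to 12, and 178 more entries outside the neuron range had one of 8 to 10 and were not counted. Of the higher entries 165 were listed at 0 in all neurons, and of the lower entries 165 were listed at 0 in the progenitors.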

How the data were processed

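The deposited signal per RefSeq gene was made by the authors: the submitters' processing notes name DESeq and bedtools as tools and mm9 with mm10 as builds, giving neither roles nor versions, and no aligner or counter. The library kit did not mark the strand, so overlapping antisense genes and close copies are uncertain. The signal held no counts, so no count test was run. Multiplied by transcript length, 77.2% to 78.5% of low values lay within 0.1 of a whole step in the libraries compared. A step fixed beforehand would give 20% by chance. The step of each library was instead the best of many tried, and chance for that choice was not computed. Depths are estimated from these steps. The test planned for normalized values was used.

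Calls followed the range rule. limma 3.58.1 in R 4.3.3 was run on log2(signal + 1) with a trended variance, for 17144 entries with a mean signal of at least 1, two-sided with Benjamini-Hochberg adjustment at 0.05, and was tested on simulated data. No label ties replicates to different embryos, and the p-values cover just the spread among these libraries, which may be technical. Python 3.11.15 with pandas 2.3.3 read the tables. Samples were grouped by their labels, and the 2 libraries lacking miR-218 and the floor plate entered no comparison.

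The members and the 31 gene lists were chosen with earlier results of these data known. Named are Stra8 and Cyp26a1, the 15 entries furthest outside the neuron range in each direction, up to 6 members of each list per direction in order of that distance, members of short lists that ran against the list or were not called, and all BAF subunits. Some genes that the rule names are not reported here. Other named genes, such as Tubb3, Nefl, Pax6, Nes, Vim, Pcna, Mki67, Rec8, Gapdh and Mnx1, were chosen as familiar markers after their values were seen. Promoters came from the RefSeq table (GRCm38.p6), matched by symbol. Alternatives were the minimum of 10, the distance from the range, the neuron libraries used, the pseudocount, the filter, the neuron groups and the scaling.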

Additional observations from a re-analysis of the deposited data

Results flagged for a closer look

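Within the 6 motoneuron libraries, 1 library stood apart from the other 5 for 18 genes named here, by a gap larger than Dixon's critical value of 0.625 of the range. Chance does this for about 1 in 20 groups, and 153 named genes were checked. Motoneuron replicate 1 was the high one for 10 of them. For progenitor and proneural genes it had 16.6 of Neurog1, 62.5 of Neurog2, 40.5 of Pax6, 50.3 of Hes5 and 19.4 of Dbx1, and for microglial genes 40.9 of C1qa, 31.3 of C1qc and 19.8 of P2ry12. It also had 112 of Hoxb4 and 424.5 of Hoxb5, the neural progenitors holding 283 and 407 of these. Of C1qa, C1qc and P2ry12 the progenitors held none, so the values of that library do not change the place of the progenitors for these genes.

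Motoneuron replicate 6 was high for Shh with 128, for Rec8 with 247 and for Foxa2 with 27.3, beside 0.302, 1321 and 93.8 in the progenitors. Motoneuron replicate 2 was low for Actl6b with 1282 and for Slc2a1 with 89.9, and high for Rb1 with 559.5 and for Rbfox1 with 2319.6. Motoneuron replicate 3 had 178 of Cdkn1a, the highest of its group. For these 8 genes the progenitors lay outside the neuron range with and without that library.

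The place of the progenitors differed between neuron classes for 3 named genes, and the difference between classes was not tested. Sufu, an inhibitor of hedgehog signalling, had 165 in the progenitors, above all 6 motoneurons and below all 3 interneurons. Isl1 with 45.2 and Mnx1 with 165 in the progenitors lay below all 6 motoneurons and above all 3 interneurons. Over the whole table, 194 entries lay above all motoneurons and below all interneurons in the progenitors, and 195 lay the other way.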

How the results depend on the processing

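Requiring a distance of at least 2-fold from the nearest neuron left 3229 higher and 2607 lower entries, and 5 higher members of the neural progenitor list. With 1 neuron library left out at a time, the range rule gave 6232 to 6400 higher and 5025 to 5145 lower entries, limma 4568 to 4937 higher and 3636 to 3975 lower, the neural progenitor list 14 to 18 higher and the pan-neuronal list 31 lower each time. With the 4 neuron types weighted equally, Mnx1 had a log2 difference of 2.98, against -1.02 with the 9 libraries weighted equally, since 3 of the 4 types are interneurons. In that fit Ldha, Cyp26b1, Crabp2 and Sox2 had log2 differences of 3.525, 3.09, 1.38 and 2.51, and Neurog1 and Foxa2 had 2.87 and 5.02. Each interneuron type has 1 library there, so the error came from the motoneuron libraries alone and the calls of that fit are not given. With every library scaled to one total, 47.6% of the called entries were higher, against 55.4% with the authors' scaling. The median log2 difference of all entries that reached 10 was then -0.10, against 0.12. Under that scaling Hoxb2 lay within the range and Homer1 was lower.

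Leaving out 1 library moved Esrrb, Nes, Hoxb4, Hoxb13, Nkx2-2 and Dpf2 to the higher and Vim, Fos, Kcna1 and Cacna2d1 to the lower entries. Sox1, Neurog1 and Hes1 each missed limma's threshold without at least 1 motoneuron library, and Sox2 passed it without the V2a or the V3 library. No paired analysis was possible because the neural progenitors have 1 library, so the groups share fewer than 2 replicate numbers. With 1 progenitor library, its own error is unknown and differences near the neuron range are not resolved.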

Other observations

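Among the entries furthest above the neurons were genes of the placenta and of epithelia, and lists for these were put together after the values had been seen, so their counts are descriptions. Of 22 trophoblast genes, 18 reached 10. Of these, 17 (94.4%) were higher in the neural progenitors than in all 9 neurons and none was lower, against 40.0% and 32.2% of all entries. Of these 17, 11 reached a signal of 10 only in the progenitors. Tfap2c, a trophoblast and germ cell factor, had 519 in the progenitors and at most 0.782 in the neurons. Hand1, a factor of trophoblast and heart, had 70.0 in the progenitors and at most 0.606 in the neurons. Peg10, an imprinted gene needed for the placenta, had 8337 in the progenitors and 184 to 628 (median 264) in the neurons. Phlda2 and Esx1, placental growth regulators, had 1163 and 581 in the progenitors and at most 2.87 and 0.679 in the neurons. The trophoblast stem cell factors Cdx2 and Elf5 did not reach 10, at 7.50 and 9.33 in the progenitors, and Tpbpa, a gene of later trophoblast, had 0.587. All 15 epithelial genes were higher, 13 of which reached 10 only in the progenitors. Among them was Epcam, an epithelial adhesion protein, with 1963 in the progenitors and 1.67 to 7.75 in the neurons. The list holds keratins and claudins that had been seen to be high, but not all members of those families were. Of 48 keratin entries 12 reached 10, of which 7 were higher and 4 lower. Of 25 claudin entries 13 reached 10, of which 8 were higher and 2 lower. Over all entries that reached 10, 40.0% were higher and 32.2% lower. The Olig2-sorted progenitors held 469 of Epcam and 173 of Tfap2c.

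Genes of the rare state of mES cells that resembles the 2-cell embryo were detected too. Of 10 such genes, 8 reached 10, all of them only in the progenitors, and all 8 were higher, beside 40.0% of all entries. Zscan4f had 397 in the neural progenitors and 267 in the Olig2-sorted progenitors and was listed at 0 in all 9 neurons, and reads of near-identical Zscan4 copies cannot be told apart.

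Imprinted and long noncoding genes differed between the 2 mES libraries as well as from the neurons. Mest, an imprinted gene of the mesoderm, had 10.5 in the neural progenitors and 10762 in the Olig2-sorted progenitors, against 239 to 1248 (median 490.1) in the neurons. The neurons thus lay between both mES libraries for Mest. Igf2, an imprinted growth factor, had 6491 in the neural progenitors and 1221 in the Olig2-sorted progenitors, against 7.17 to 1569.7 (median 24.3) in the neurons, where V3 was the highest. Neat1, the RNA scaffold of paraspeckles, had 2804 in the neural progenitors and 119 in the Olig2-sorted progenitors, against 0.878 to 10.8 in the neurons. Malat1, its neighbour in the genome, lay within the range with 641 in the neural progenitors and 267 to 1209.5 in the neurons.

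Slit2 and Slit3, whose introns hold the genes of miR-218, are guidance molecules. Slit2 was lower with 24.7 in the neural progenitors, against 1344 to 2219 in the motoneurons and 655, 279 and 389.7 in the V1, V2a and V3 interneurons. Slit3 had 62.5 in the neural progenitors, against 571 to 694 in the motoneurons and 76.8, 59.8 and 70.7 in the V1, V2a and V3 interneurons. The progenitors thus lay among the interneurons for Slit3 and below every neuron for Slit2. The microRNA itself was not measured in these libraries.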
